A study of Homo sapiens with 6 samples.

Results

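The 33 genes described here are targets of the transcription factor p53, named one by one and looked up by symbol among the 58219 genes of the deposited table. Each symbol was found in 1 row, and all 33 genes passed the filter on low values and were tested. They were grouped by function into control of p53 itself (3 genes), growth arrest and growth restraint (10), apoptosis (9), DNA repair and nucleotide supply (4), and metabolism, redox balance and mitochondria (7). The RNA came from IMR90, a line of human lung fibroblasts that are normal and diploid. In these cells a RAS oncoprotein fused to part of the oestrogen receptor (ER-RAS) is switched on by 4-hydroxytamoxifen (4OHT). All 6 libraries carry ER-RAS and all received 100 nM 4OHT, for 30 h in 3 libraries labelled uncommitted and for 72 h in 3 libraries labelled committed to senescence. No library without 4OHT is part of the comparison, so each value below is a difference between an earlier and a later time of RAS activity. The sample titles give 1.5 days for the shorter time, while the treatment protocol and the column names give 30 h, and the hours are used here. The labels do not say whether replicates A, B and C were separate cultures, and the p-values therefore rest on differences among these libraries that may be technical.

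p53 is held at a low level in unstressed cells by MDM2, a ubiquitin ligase that marks it for breakdown, and it accumulates when kinases of the DNA damage response or the ARF protein of the CDKN2A locus interfere with that. It then binds pairs of short half-sites in DNA and raises transcription of genes that stop the cell cycle, repair DNA, adjust metabolism, or drive apoptosis, together with MDM2, which closes a negative feedback loop. In fibroblasts, activated RAS is known to engage p53 as one of the arms of oncogene-induced senescence.

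The 33 genes did not move as a block between 30 h and 72 h. 11 were higher at 72 h, 6 were lower and 16 did not pass the test (limma, Benjamini-Hochberg adjusted p below 0.05 over all genes tested). The share that was higher, 33.3%, stands beside a background of 23.6% of the 13315 genes tested, and the share that was lower, 18.2%, beside 25.0%. The median log2 fold change was 0.07, against 0.01 over all genes tested, with 19 members above 0 and 14 below. Regardless of direction, the median size of the change was 0.39 on the log2 scale for the members and 0.28 for all genes tested, and only GDF15 and BTG2 differed by at least 2-fold. The values of 72 h lay apart from those of 30 h in 17 members, 12 above and 5 below, which is 51.5% of them, against 59.2% of all genes tested. Of the 17 called members, 13 kept their call in each of the 16 alternative analyses, and the other 4 (MDM4, BTG2, BBC3 and FAS) are marked where they are described.

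**Figure D1:**
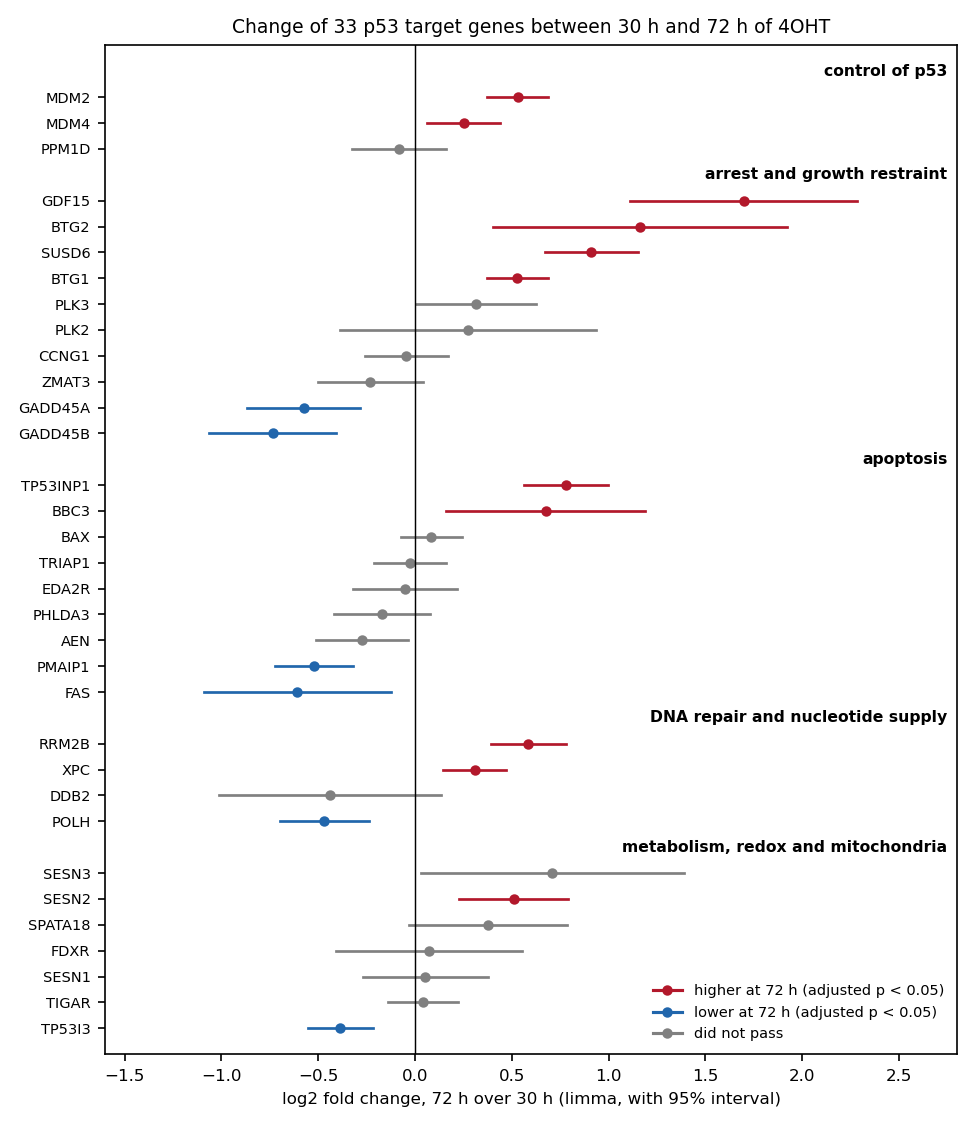
Log2 fold change of each of the 33 genes at 72 h over 30 h, by role, with the 95% interval of the limma fit as a line; red points were higher, blue points lower and grey points did not pass. The points run from -0.74 for GADD45B to 1.70 for GDF15, and each of the 3 largest roles holds genes on both sides of 0.

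Sequences that resemble a p53 site are shown first, because binding to such sites is what defines a p53 target. RefSeq promoter windows of 300 bases, from 250 before to 50 after a transcript start (GRCh38.p14), were at hand for 29 of the 33 genes. They were searched for the p53 consensus, 2 adjoining half-sites of 10 bases, with the central C and G of both half-sites kept and at most 3 mismatches elsewhere, a limit chosen after the matches were seen. The consensus is its own reverse complement, so 1 search covers both strands. A match was found in 9 of the 41 windows of the members (22.0%) and in 389 of all 34943 windows (1.11%). The genes were listed because they are known as p53 targets, so this difference describes the list and is no result of the RNA data. The 8 genes with a match follow, each written 5′ to 3′ on the strand of its gene, with the 4 kept bases in capitals.
MDM2: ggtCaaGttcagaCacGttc
GDF15: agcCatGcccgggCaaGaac
FAS: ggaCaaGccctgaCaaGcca
PMAIP1: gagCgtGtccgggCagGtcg
DDB2: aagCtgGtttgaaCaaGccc
AEN: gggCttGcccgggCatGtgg
SESN1: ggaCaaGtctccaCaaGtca
FDXR: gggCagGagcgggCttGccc

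The DDB2 match, at chr11:47214969-47214988 on the plus strand, has 1 mismatch and begins 5 bases before a transcript start. Those of MDM2 (chr12:68808923-68808942, plus strand), FAS (chr10:88991309-88991328, plus strand) and AEN (chr15:88621306-88621325, plus strand) have 2 mismatches. 3 mismatches are present in GDF15 (chr19:18386186-18386205, plus strand), PMAIP1 (chr18:59899811-59899830, plus strand), SESN1 (chr6:109009018-109009037, minus strand) and FDXR (chr17:74872996-74873015, minus strand). In GENCODE 29, whose genome build is also GRCh38, the MDM2 and SESN1 matches lie inside the gene but in no annotated exon, and so in introns. The PMAIP1 match lies upstream of the gene in GENCODE 29 and begins 185 bases before the RefSeq transcript start, and the other 5 lie in an exon of at least 1 transcript. Of the 8 genes with a match 2 were higher at 72 h (MDM2 and GDF15), 2 were lower (FAS and PMAIP1) and 4 did not pass (DDB2, AEN, SESN1 and FDXR). Over the 29 genes with a window these counts were 9, 5 and 15. A match in these letters is not evidence of binding, and a window without one says only that these letters are not in it.

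The libraries held 13221152 to 15703544 reads assigned to genes. The first principal component (81.3% of the variance) parted 30 h from 72 h, and the second (7.0%) set replicate C of both times apart from A and B. Without both C libraries, an alternative added after the data were seen, 12 members were higher and 7 lower. Of all 13315 genes tested, 3462 were then higher and 3619 lower. Among the 72 h libraries, replicate C was the lowest for 23 of the 33 members, against 39.1% of all genes tested. All 9 fibroblast markers were detected, and their summed level was 173180 to 183380 normalised counts at 30 h and 60860 to 69949 at 72 h. Of these 9 markers 6 were lower, among them COL1A1, VIM and THY1, and 0 higher. Over all genes tested 25.0% were lower and 23.6% higher. Endothelial markers summed to 11.2 to 19.0 normalised counts at 30 h and 25.2 to 35.7 at 72 h with CDH5 at 0, and blood markers to 7.11 to 15.8 and 10.2 to 15.7 with CD3E at 0. The epithelial list summed to 723 to 822 and 570.2 to 681, nearly all of it KRT18 and KRT8, and CDH1 had reads in 1 library. The part of these marker levels in the changes below was not tested, and in bulk RNA fewer cells of a type and less RNA per cell cannot be told apart.

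The RNAs of both MDM genes rose, MDM2 by 1.45-fold and MDM4 by 1.19-fold, while the phosphatase gene PPM1D did not pass. MDM2 (chr12:68808176-68850686) encodes the ubiquitin ligase that ends p53 signalling and is itself a p53 target. It was measured at 1813, 1913 and 1877 normalised counts at 30 h (replicates A, B and C, reads divided by the size factor of the library) and at 2887, 2813 and 2422 at 72 h. The groups did not overlap, and the change was 0.53 ± 0.07 on the log2 scale (limma, ± SE, n = 3 per group, adjusted p = 0.000221). MDM4, a relative of MDM2 that binds p53 and blocks its activity, gave 346, 373 and 354 normalised counts at 30 h against 427, 389.8 and 464 at 72 h. Its log2 change was 0.25 ± 0.08 (limma adjusted p = 0.0320), with all 72 h values above all 30 h values. This call was lost without replicate A, B or C of 30 h (log2 0.23, 0.28 and 0.24), without A or C of 72 h (0.25 and 0.19) and without both C libraries (0.18). The adjusted p ran from 0.0183 to 0.103 over the alternatives. DESeq2 on the whole reads (adjusted p = 0.0974) and the authors' deposited table (0.0980) did not call MDM4. PPM1D, whose product WIP1 removes phosphates from p53 and from the kinases above it, had 246 ± 29.6 normalised counts at 30 h and 231 ± 14.1 at 72 h (SD, n = 3), and the 95% interval of its log2 change was -0.33 to 0.16.

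Among the 10 arrest and growth restraint genes 4 rose (GDF15, BTG2, SUSD6 and BTG1), 2 fell (GADD45A and GADD45B) and 4 did not pass. That is 40% higher and 20% lower, beside 23.6% and 25.0% of all genes tested. GDF15 (chr19:18374731-18389176), a secreted stress cytokine of the TGF-beta superfamily, changed by the most of all 33 genes. Its normalised counts were 524, 445 and 695 at 30 h and 2012, 2051 and 1347 at 72 h. Every 72 h library exceeded every 30 h library, with replicate C the highest at 30 h and the lowest at 72 h. The fold was 3.24 (95% interval 2.16 to 4.87, log2 1.70 ± 0.23, limma adjusted p = 0.00223), and the log2 change was 2.07 without both C libraries.

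BTG2 and BTG1 belong to a family of antiproliferative proteins that bind the CCR4-NOT deadenylase. BTG2 was scarce, with 18.5, 26.4 and 21.1 normalised counts at 30 h against 58.2, 75.0 and 28.3 at 72 h. The 72 h libraries A and B stood well above 30 h, whereas C lay just above the highest 30 h value. The log2 change was 1.16 ± 0.34 (2.24-fold, limma adjusted p = 0.0182). The call was lost without replicate A of 30 h (log2 1.05) and without A (1.05) or B (0.87) of 72 h, and over the alternatives the adjusted p ran from 2.57e-05 to 0.0731. BTG1, at 310.2 normalised counts per kb of exon at 30 h where BTG2 was at 7.98, had 1452, 1517 and 1549 normalised counts at 30 h and 2179.7, 1977 and 2381 at 72 h. Those groups lay apart, and the log2 change was 0.53 ± 0.07 (limma adjusted p = 0.000236). The exons of BTG1 share 503 bases, 10.4% of their length, with LINC01619 on the same strand, which had a mean of 7.55 normalised counts.

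SUSD6 (chr14:69611596-69715142), a membrane protein gene described as a p53-responsive growth suppressor, showed 725, 739 and 947 normalised counts at 30 h. At 72 h it showed 1489, 1612 and 1406, all above the 30 h range, a change of 0.91 ± 0.11 on the log2 scale (1.88-fold, limma adjusted p = 0.000185).

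**Figure D2:**
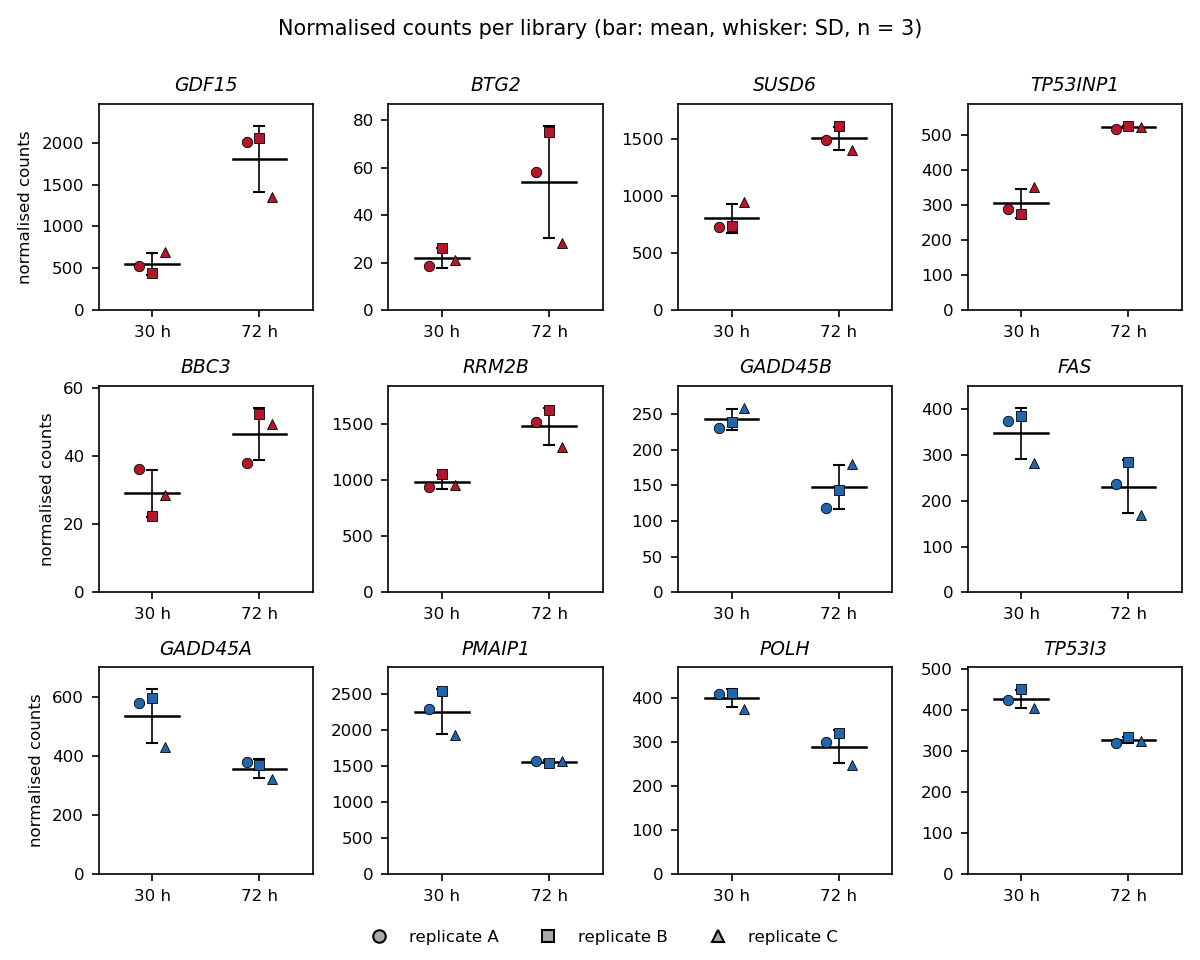
Normalised counts of the 6 called members with the largest rise (red) and the 6 members that fell (blue) in each library, with the group mean as a bar and the SD as a whisker (n = 3); each vertical axis starts at 0. The 30 h and 72 h points lie apart in every panel except FAS, where the 72 h replicate B (286) lies above the 30 h replicate C (284).

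The GADD45 genes encode small stress sensors that bind PCNA and activate MAP kinase kinase kinases, and both of the members measured fell. GADD45A had 577, 594 and 430.3 normalised counts at 30 h and 380.1, 367 and 319.9 at 72 h, so that all 72 h values lay below all 30 h values (log2 change -0.57 ± 0.13, limma adjusted p = 0.00563). GADD45B (chr19:2476122-2478259) went from 231, 239 and 259 to 119, 144 and 180.4, the largest fall among the 33 genes (log2 change -0.74 ± 0.15, limma adjusted p = 0.00244). Both fell in every alternative, with log2 changes between -0.72 and -0.49 for GADD45A and between -0.89 and -0.59 for GADD45B.

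Of the 4 members of this role that did not pass, the stress kinase PLK2 rested on 1 library. Its normalised counts were 800.3, 804 and 1484 at 30 h and 1228, 1261 and 1089.8 at 72 h, so that replicate C of 30 h exceeded all other libraries. The log2 change was 0.27 ± 0.26 (limma adjusted p = 0.442). It was 0.57 without replicate C of 30 h, with an adjusted p of 0.000142, in a range of 3.84e-08 to 0.761 over the alternatives. PLK3, a related kinase, had a log2 change of 0.32 ± 0.14 (limma adjusted p = 0.0846). It passed without replicate C of 72 h (log2 0.47, adjusted p = 0.00257, limma, range 0.000438 to 0.239) and without both C libraries (0.42). PLK3 also passed without a filter and with the replicate block (both 0.32) and with quantile normalisation (0.35). ZMAT3, an RNA-binding regulator of splicing, had 1863 ± 118 normalised counts at 30 h and 1601 ± 256 at 72 h (SD, n = 3), with a 95% interval of -0.50 to 0.04 for the log2 change. CCNG1, the cyclin that brings a phosphatase to MDM2, had 1698 ± 122 and 1653 ± 211, with an interval of -0.26 to 0.17.

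Of the 9 apoptosis genes 2 rose (TP53INP1 and BBC3), 2 fell (PMAIP1 and FAS) and 5 did not pass. The shares of 22.2% in each direction were near those of all genes tested (23.6% higher and 25.0% lower). BBC3 and PMAIP1 both encode BH3-only proteins, PUMA and NOXA, which neutralise survival proteins of the BCL2 family, and their RNAs moved in opposite directions. BBC3 was scarce, with 36.1, 22.4 and 28.5 normalised counts at 30 h and 37.8, 52.3 and 49.3 at 72 h. The groups were apart by the narrow gap between replicate A at 30 h and replicate A at 72 h, and the log2 change was 0.68 ± 0.23 (limma adjusted p = 0.0340). It no longer passed without replicate B or C of 30 h (log2 0.51 and 0.68), without B or C of 72 h (0.59 and 0.63) or without both C libraries (0.63). BBC3 also did not pass with DESeq2 on the whole reads or in the authors' deposited table (both 0.68). The adjusted p over the alternatives ran from 0.0238 to 0.122.

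PMAIP1 (chr18:59899948-59904306) was the most abundant member per length at 30 h. It had 2297, 2546 and 1933 normalised counts there and 1578, 1544 and 1565 at 72 h. The 72 h values were close together and all below 30 h, and the log2 change was -0.52 ± 0.09 (limma adjusted p = 0.00128). That call held in every alternative.

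TP53INP1, which encodes a nuclear protein that promotes p53-dependent cell death and autophagy, had 288, 274 and 351 normalised counts at 30 h. The 72 h libraries were nearly equal at 517, 524 and 522, a log2 change of 0.78 ± 0.10 (1.72-fold, limma adjusted p = 0.000149). FAS (chr10:88990582-89015785), the death receptor for FAS ligand, gave 375, 385 and 284 normalised counts at 30 h and 237, 286 and 169.9 at 72 h. Replicate C was the lowest at both times and the groups overlapped, so FAS is the one called member without separate groups (log2 change -0.61 ± 0.21, limma adjusted p = 0.0437). The call was lost without replicate A or B of 30 h (log2 -0.55 and -0.53), without A or C of 72 h (-0.64 and -0.40) and with total-count scaling (-0.60). Its adjusted p ran from 8.16e-07 to 0.126 over the alternatives. Within each replicate letter FAS was lower at 72 h than at 30 h. With the replicate block its log2 change was -0.61 ± 0.09 (limma adjusted p = 0.000662). In GENCODE 29 the exons of FAS share 380 bases, 8.94% of their length, with ACTA2 on the opposite strand. ACTA2 had a mean of 896 normalised counts, and no source used here says whether the counting used strand, so part of the FAS reads is uncertain.

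BAX, the pore-forming effector of the mitochondrial pathway, had 1190 ± 35.9 normalised counts at 30 h and 1264 ± 114 at 72 h (SD, n = 3), with a 95% interval of -0.07 to 0.24 for the log2 change. AEN, an apoptosis-enhancing nuclease, had 1398 ± 154 and 1158 ± 131, a log2 change of -0.27 ± 0.10 that narrowly missed the threshold (limma adjusted p = 0.0590). AEN passed without replicate C of 30 h (log2 -0.37), without replicate B of 72 h (-0.33) and without both C libraries (-0.27). It also passed without a filter and with the replicate block (both -0.27, limma adjusted p = 0.00104 and 0.00241). Over the alternatives the adjusted p of AEN ran from 0.000615 to 0.176. PHLDA3, an inhibitor of AKT, had a log2 change of -0.17 ± 0.11 and passed only without replicate B of 72 h (log2 -0.30, adjusted p = 0.0150, limma, range 0.0150 to 0.541). The exons of PHLDA3 share 598 bases, 19.1% of their length, with AC096677.2 on the same strand, which had a mean of 0 normalised counts. How reads in the stretch shared with PHLDA3 were counted is not known. EDA2R, a receptor of the TNF receptor superfamily, had an interval of -0.32 to 0.22, and TRIAP1, a mitochondrial inhibitor of apoptosis, one of -0.21 to 0.16.

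In DNA repair and nucleotide supply RRM2B and XPC rose, POLH fell and DDB2 did not pass. Of these 4 genes 50% were thus higher and 25% lower, beside 23.6% and 25.0% of all genes tested. RRM2B, the p53-inducible small subunit of ribonucleotide reductase that supplies deoxynucleotides outside S phase, had 937, 1050.5 and 953 normalised counts at 30 h. Its 72 h values of 1512, 1621 and 1292 were all higher (log2 change 0.58 ± 0.09, limma adjusted p = 0.000453).

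XPC and DDB2 encode proteins that recognise damage in nucleotide excision repair. XPC (chr3:14145147-14178783) had 419, 427 and 398 normalised counts at 30 h against 528, 531 and 482 at 72 h, a small separation of 0.31 ± 0.07 on the log2 scale (limma adjusted p = 0.00600). Its exons share 318 bases with LSM3 on the opposite strand, a gene with a mean of 528 normalised counts. They share 1140 bases, 23.8% of their length, with AC093495.1 on the opposite strand, which had a mean of 2.49. DDB2 had 281, 302 and 260.5 at 30 h and 236, 271 and 138 at 72 h, where replicate C was far below A and B (log2 change -0.44 ± 0.24, limma adjusted p = 0.180). POLH, the translesion polymerase eta, fell from 409, 411 and 375 to 299, 320.0 and 249 with no overlap (log2 change -0.47 ± 0.10, limma adjusted p = 0.00425).

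Of the 7 genes of metabolism, redox balance and mitochondria, SESN2 rose, TP53I3 fell and 5 did not pass. The share was 14.3% in each direction, beside 23.6% higher and 25.0% lower over all genes tested. The sestrins restrain the growth kinase mTORC1 and lower oxidative stress. SESN2 had 335, 319 and 284 normalised counts at 30 h against 409, 397 and 543 at 72 h, with the groups apart and replicate C the lowest at 30 h and the highest at 72 h (log2 change 0.51 ± 0.13, limma adjusted p = 0.00792). SESN1 had 87.3 ± 11.7 and 90.1 ± 3.74 normalised counts (SD, n = 3), with an interval of -0.27 to 0.38. SESN3 was near the filter's minimum of 10, at 17.5, 17.3 and 9.49 at 30 h and 22.5, 20.1 and 30.4 at 72 h. These groups did not overlap, yet the log2 change of 0.71 ± 0.30 did not pass (limma adjusted p = 0.0794).

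TP53I3, a quinone oxidoreductase linked to reactive oxygen species, went from 424, 449 and 404 normalised counts to 319.8, 333 and 323, with tight groups that lay apart (log2 change -0.39 ± 0.08, limma adjusted p = 0.00213). TIGAR, a phosphatase that lowers glycolytic flux, was at 472 ± 2.60 and 488 ± 47.3 (SD, n = 3), with an interval of -0.14 to 0.23. The exons of TIGAR share 1711 bases, 42.6% of their length, with AC008012.1 on the same strand, which had a mean of 0 normalised counts. How reads in the stretch shared with TIGAR were counted is not known. FDXR, the mitochondrial ferredoxin reductase, had an interval of -0.41 to 0.55. SPATA18, a mitochondrial quality control gene, had 104 ± 15.3 and 137 ± 29.9 normalised counts and a log2 change of 0.38 ± 0.18 (limma adjusted p = 0.116). SPATA18 passed without replicate C of 72 h (log2 0.56, adjusted p = 0.0152, limma, range 0.0127 to 0.347). It also passed without both C libraries (log2 0.43) and with the replicate block (0.38).

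**Figure D3:**
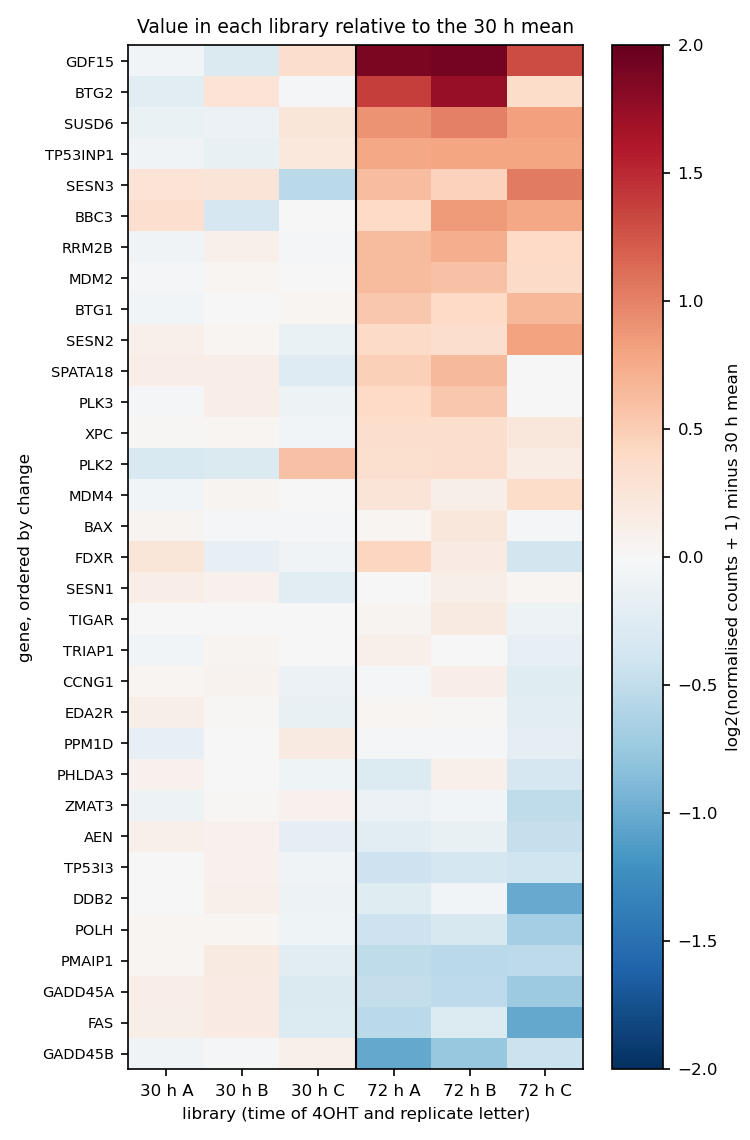
Log2(normalised counts + 1) of the 33 genes in each of the 6 libraries, minus the mean of the 3 libraries at 30 h, with genes ordered by their change; red is above and blue below that mean. The top rows from GDF15 to TP53INP1 are red in all 72 h libraries, and 72 h replicate C is paler than A and B for GDF15 and BTG2 and darker blue for DDB2 and FAS.

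A list of 26 regulators and partners of p53 held 24 tested genes, of which 8 rose, 4 fell and 12 did not pass. That is 33.3% higher and 16.7% lower, beside 23.6% and 25.0% of all genes tested. The largest rises were those of DAXX, a histone chaperone that also binds MDM2 (log2 0.51 ± 0.07), TP53RK, a kinase reported to phosphorylate p53 (0.50 ± 0.07), and TP53BP1, a damage response scaffold (0.45 ± 0.06). CHEK1, the checkpoint kinase of replication stress, had the largest fall, from 780, 767 and 687 normalised counts to 311, 309.5 and 262 (log2 -1.34 ± 0.09, limma adjusted p = 3.51e-06). CDKN2A, whose locus encodes ARF and the CDK4 inhibitor INK4A, fell by 0.60 ± 0.15 and CHEK2 by 0.52 ± 0.15 on the log2 scale. Gene counts do not part the transcripts of ARF and INK4A.

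A further list held 30 other p53 targets, 25 of them tested, with 8 higher, 5 lower and 12 not passing, or 32% and 20% beside the same background. CDKN1A, the CDK inhibitor that carries much of the p53 arrest, had 4238, 4426 and 4223 normalised counts at 30 h and 7327, 8509 and 5783 at 72 h, with separate groups (log2 0.73 ± 0.13, limma adjusted p = 0.00346). LIF, a cytokine of the IL-6 family, had the largest rise of the list, from 2143, 1880.5 and 2548 to 13585, 13169 and 12779 (log2 2.60 ± 0.10, limma adjusted p = 5.20e-07). Next came NINJ1, which ruptures the plasma membrane in lytic cell death (2.24 ± 0.07), and the TRAIL receptor TNFRSF10B (1.09 ± 0.06). The largest falls were those of the desmosomal gene PERP (-0.56 ± 0.09), the lysosomal autophagy gene DRAM1 (-0.54 ± 0.08) and the replication clamp PCNA (-0.46 ± 0.09).

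Close relatives among the members were set against each other within each library, since the ratio of both genes in a library is hardly touched by its size factor. For 7 pairs, the difference of their log2 changes was tested with a two-sided exact permutation test, in which 3 libraries against 3 cannot give a p below 0.1. The ratio SESN1 to SESN2 was lower at 72 h in every library: on the log2 scale it ran from -1.93 to -1.78 at 30 h and from -2.59 to -2.06 at 72 h (difference -0.46, exact p = 0.1, adjusted over the 7 pairs 0.35). SESN1 to SESN3 was lower as well, from 2.35 to 2.83 at 30 h and from 1.52 to 2.18 at 72 h (difference -0.66, exact p = 0.1, adjusted 0.35). In the other 5 pairs the ratios of the groups overlapped. Their differences of log2 changes were 0.28 for MDM2 minus MDM4, -0.20 for SESN2 minus SESN3, 0.16 for GADD45A minus GADD45B, -0.04 for PLK2 minus PLK3 and -0.63 for BTG1 minus BTG2. With 3 libraries per group no pair could pass a threshold of 0.05, so these differences are given as values only.

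**Figure D4:**
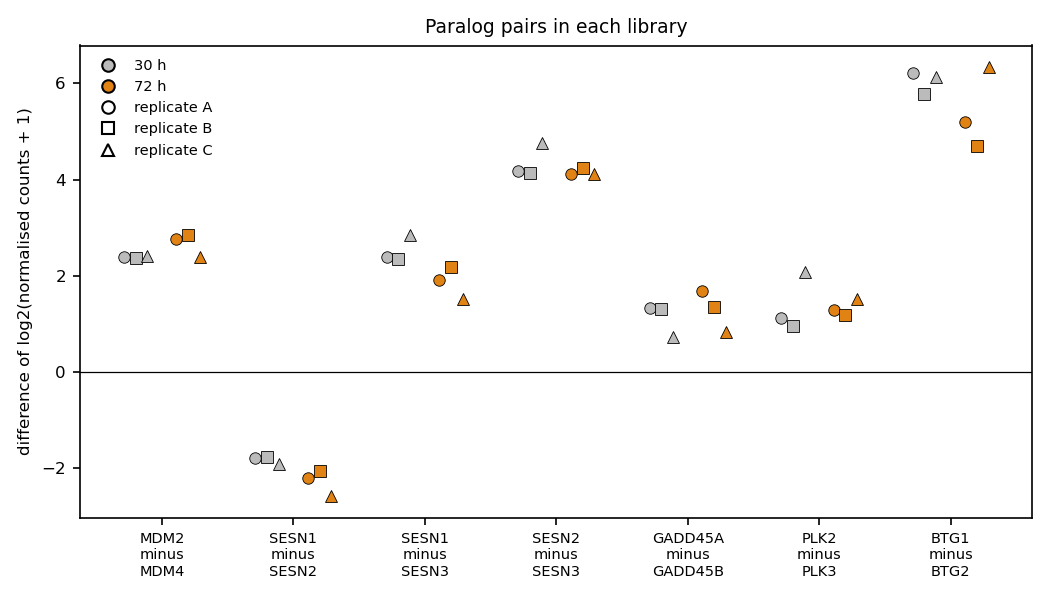
Difference of log2(normalised counts + 1) between both genes of each of the 7 pairs, in each library, with 30 h in grey and 72 h in orange and the replicate as the marker shape. The points of 30 h and 72 h are apart for SESN1 against SESN2 and against SESN3, and they overlap in the other 5 pairs.

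Levels of different genes were compared as normalised counts per kb of exon. The exons of all annotated transcripts of a gene were merged for its length. Which transcripts were expressed was not tested, so the order below holds for these lengths only. At 30 h PMAIP1 was the most abundant member at 1011 per kb, followed by CCNG1 at 548 and BAX at 460.0, and the lowest were SESN3 at 1.40, BTG2 at 7.98 and BBC3 at 9.11. At 72 h GDF15 had the highest mean, 864 per kb (964, 983 and 645 in replicates A, B and C), and PMAIP1 the next, 699 per kb (706, 691 and 700.2). Replicate C of 72 h had less GDF15 than PMAIP1, so the order of these genes did not hold in every library. BTG2 and BBC3, both called higher, were still among the 4 scarcest members at 72 h, at 19.5 and 14.6 per kb, with SESN1 at 17.6 and SESN3 at 2.30.

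**Figure D5:**
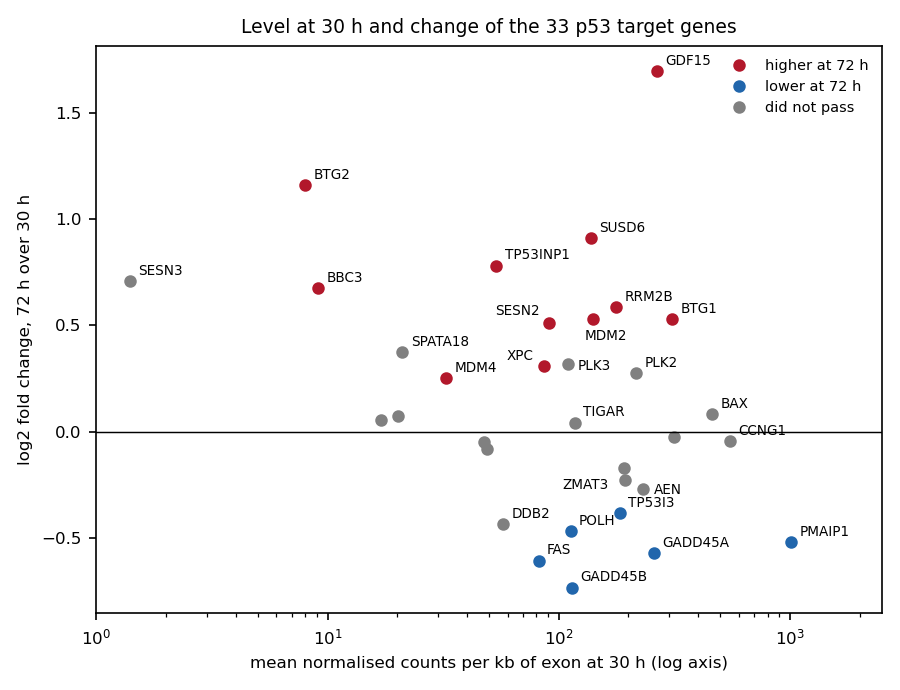
Log2 fold change at 72 h over 30 h against the mean level at 30 h in normalised counts per kb of exon (log axis), 1 point per gene, coloured by the result of the test. Genes that rose lie from 7.98 per kb (BTG2) to 310.2 per kb (BTG1), and genes that fell from 81.8 (FAS) to 1011 (PMAIP1).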

How the data were processed

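Per the labels' protocols, RNA was extracted with TRIzol and RNeasy columns and sequenced from KAPA mRNA HyperPrep libraries. Per the submitters' processing notes, Trimmomatic 0.35, STAR 2.5.1b, DESeq2 1.18.1 and the build GRCh38 (hg38) were used; no source used here names the read counter, the annotation or the strand setting. The deposited signal values are read counts over 1 size factor for each library, as the authors computed them; in each library 100% were whole multiples of 1 read within 0.01, which gave back the whole reads. Per the file headers, the deposited table also holds a log2 fold change, a score (the Wald statistic) and p-values, raw and adjusted, which enter only statements that name the authors' deposited table. Left-out columns of per-sample values numbered 0.

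Genes that reached 10 normalised counts in 3 or more of the 6 libraries (13315 of 58219) were compared on log2(value + 1) with limma 3.58.1 (trend, robust; R 4.3.3), 72 h against 30 h. P-values were adjusted by Benjamini-Hochberg over all of them, and the threshold was 0.05. Fold changes are on that scale, which understates changes of low genes. Alternatives were other added constants (0.5 and 5), no filter, total-count scaling, quantile normalisation, a replicate block, edgeR 4.0.16 and DESeq2 1.42.0 on the whole reads, the authors' table, and leaving out libraries. The steps were run on simulated counts with independent libraries and far fewer changed genes than here. That run does not cover deviations shared between libraries, and its outcome is not used as support here. Replicates differed by more than sampling noise (chi-square 3.29 to 16.3 per degree of freedom) and each counted as 1 sample. Duplicate reads from PCR count as separate reads here, and depth limits the scarcest genes most.

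The members and lists were chosen with earlier results of these data known. All members were described; from the 2 further lists, CDKN1A and up to 3 called genes per direction with a mean of at least 50 were named, and 1 gene that the rule names is not reported here. All 33 members had the same coordinates in GENCODE 29, which also gave exon lengths and overlaps. No protein sequences were used here. No promoter window was used for PHLDA3, GADD45A, TP53INP1 and RRM2B.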

Additional observations from a re-analysis of the deposited data

How the results depend on the processing

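Over the 16 alternatives the count of higher members ran from 9 to 13 and that of lower members from 5 to 9, against 11 and 6. Leaving out 1 library at a time gave 9 to 11 higher and 5 to 8 lower members, 2529 to 3174 higher and 2689 to 3295 lower genes of all tested, and 13 to 16 higher and 7 to 10 lower genes of the regulators and other targets together. Without a filter 12 members were higher and 9 lower, with PLK3 then among the higher and ZMAT3, AEN and DDB2 among the lower. DESeq2 on the whole reads and the authors' deposited table gave 9 higher and 6 lower. Calls were lost for MDM4, BTG2, BBC3 and FAS under the alternatives named with them, and 7 members that had not passed were called in at least 1 alternative (PLK2, PLK3, ZMAT3, AEN, PHLDA3, DDB2 and SPATA18); the cause was not tested. No called member changed sign. PPM1D moved to a log2 change of 0.06 without both C libraries and CCNG1 to 0.06 without replicate C of 72 h. The replicate letters were not treated as pairs in the main fit. The deviations of same-letter libraries from their group means had a correlation of 0.00696 for A, 0.172 for B and 0.185 for C. The correlations for B and C were above 0, and KRT19 was high in replicate B at both times. It had 43.7 normalised counts there at 30 h and 34.9 at 72 h, and 1.02 to 4.87 in the other libraries. Whether a letter marks a shared origin of libraries was not tested. If it does, the main fit leaves that pairing out. With the replicate block 13 members were higher and 8 lower; it added PLK3, SPATA18, AEN and DDB2 and removed none.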
